A study of Homo sapiens with 9 samples.

Results

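The genes described here encode transcription factors of the TALE family (named for a loop in their homeodomain), several of which bind DNA beside HOX proteins. They are MEIS1, MEIS2, PBX2, PBX3, PKNOX1, TGIF1 and TGIF2, taken as every probe set whose annotation gave exactly 1 gene symbol and whose symbol was on that list. The 7 genes had 18 of the 54675 probe sets on the array, and 15 of the 18 were among the 27307 probe sets bright enough to test. MEIS1 had 2 probe sets, MEIS2 1, PBX2 4 with 3 tested, PBX3 1, PKNOX1 5, TGIF1 3 with 1 tested and TGIF2 2. The genes and the lists set beside them were chosen with earlier results of these data known.

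HEK293, an established line of human embryonic kidney origin, was measured on 9 one-colour arrays in 3 groups of 3. In the knockdown group MOF was depleted with small interfering RNA, in the overexpression group the cells carried a transfected plasmid encoding human MOF, and the wild type group was untreated. MOF is the protein of KAT8, an acetyltransferase of histone H4, and the series sets altered MOF beside the DNA damage response. All groups were grown in the same medium, and the siRNA sequence, the plasmid's promoter and the time after transfection are absent from the labels. The wild type cells went through no transfection, so transfection and altered MOF cannot be told apart where they are the baseline. Whether replicates were separate cultures is not stated, and p-values here reflect only how these arrays varied, which may be technical variation.

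TALE proteins carry a homeodomain with extra residues between its first helices. PBX and MEIS or PKNOX proteins form pairs with each other and with HOX proteins on DNA, which raises the specificity of HOX binding. MEIS proteins bind PBX through their amino-terminal part, which also keeps PBX in the nucleus, and PKNOX1 (PREP1) competes with MEIS for the same surface of PBX. TGIF1 and TGIF2 are repressors that recruit corepressors to SMAD proteins and oppose retinoic acid signalling. They bind nearly the same core letters as MEIS.

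Because several of the genes moved together, the RefSeq promoter windows (GRCh38.p14, from 250 bases before to 50 bases after the annotated start) of 5 genes are shown. These are 4 genes that were higher in knockdown cells and TGIF2, which was not called. All 7 symbols matched a gene in RefSeq, with 15 windows in all, 7 of them of TGIF1 and 2 each of MEIS2 and TGIF2. For those 3 genes the window shown was chosen after the matches were seen, as one that holds a match, so the sequences shown overstate how often the motifs occur. Capitals mark matches on either strand to TGACAG, the core bound by MEIS, PKNOX and TGIF proteins, or to TGATNNAT, a PBX and HOX composite, which do not overlap here. The windows are at chr2:66434875-66435174 (plus strand, MEIS1), chr15:37098647-37098946 (minus strand, MEIS2), chr9:125747933-125748232 (plus strand, PBX3), chr18:3449922-3450221 (plus strand, TGIF1) and chr20:36573347-36573646 (plus strand, TGIF2), and each is written 5′ to 3′ along the gene's strand.
MEIS1: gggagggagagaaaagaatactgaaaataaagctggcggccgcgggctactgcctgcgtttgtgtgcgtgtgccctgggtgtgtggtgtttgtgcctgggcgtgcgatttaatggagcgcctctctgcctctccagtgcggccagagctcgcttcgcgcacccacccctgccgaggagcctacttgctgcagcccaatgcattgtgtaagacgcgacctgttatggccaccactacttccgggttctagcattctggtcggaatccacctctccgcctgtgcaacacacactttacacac
MEIS2: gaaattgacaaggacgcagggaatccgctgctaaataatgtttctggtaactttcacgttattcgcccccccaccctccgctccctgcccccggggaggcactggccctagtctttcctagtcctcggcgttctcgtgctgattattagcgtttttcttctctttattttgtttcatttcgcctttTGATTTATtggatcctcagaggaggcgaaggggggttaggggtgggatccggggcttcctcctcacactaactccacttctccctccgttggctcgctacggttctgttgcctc
PBX3: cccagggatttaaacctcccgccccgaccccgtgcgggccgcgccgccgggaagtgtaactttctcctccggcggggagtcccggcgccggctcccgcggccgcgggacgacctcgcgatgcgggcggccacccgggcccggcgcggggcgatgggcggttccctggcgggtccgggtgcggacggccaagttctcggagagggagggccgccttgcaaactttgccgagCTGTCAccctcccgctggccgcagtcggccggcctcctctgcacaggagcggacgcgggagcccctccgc
TGIF1: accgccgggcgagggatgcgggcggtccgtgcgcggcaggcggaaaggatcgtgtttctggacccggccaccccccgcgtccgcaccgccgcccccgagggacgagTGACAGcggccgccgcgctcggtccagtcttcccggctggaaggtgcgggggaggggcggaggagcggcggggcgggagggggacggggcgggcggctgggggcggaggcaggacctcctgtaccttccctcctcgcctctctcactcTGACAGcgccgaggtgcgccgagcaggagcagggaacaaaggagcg
TGIF2: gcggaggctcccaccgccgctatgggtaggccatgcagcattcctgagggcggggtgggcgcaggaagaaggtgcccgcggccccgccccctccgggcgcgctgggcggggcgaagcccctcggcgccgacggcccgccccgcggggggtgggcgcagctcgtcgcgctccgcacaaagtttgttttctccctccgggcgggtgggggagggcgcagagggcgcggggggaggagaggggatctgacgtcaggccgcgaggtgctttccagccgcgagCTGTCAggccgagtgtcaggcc
The MEIS1 window held neither run of letters, and nor did the single windows of PBX2 and PKNOX1, which are not shown. The MEIS2 window shown held TGATTTAT, the PBX3 window and the TGIF2 window shown held CTGTCA, which is TGACAG on the other strand, and the TGIF1 window shown held TGACAG at 2 places. The other windows of MEIS2 and TGIF2 held neither, nor did 3 of the 7 TGIF1 windows. TGACAG was in 4 of the 15 windows (26.7%), against 15.8% of all 35116 promoter windows of this length. TGATNNAT was also in 4 of 15 (26.7%), against 7.40% of all windows, and 3 of the 4 were windows of TGIF1. Windows of 1 gene partly overlap and are not independent. The PBX and MEIS composite TGATTGAC was in 0 of 15, against 0.575% of all windows. The GC-box core GGGCGG was in 12 of 15 (80%), against 45.0%, with TGIF1 giving the most of these windows. The 15 windows had 38% to 78.7% GC, against a median of 58.7% over all windows. CCAAT was in 4 of 15 (26.7%), against 34.6%, and CCGGAAG in 2 of 15 (13.3%), against 10.3%. TATAAA was in 1 of 15 (6.67%), against 11.5%, and CACGTG in 0 of 15, against 7.26%. These matches describe the letters only.

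KAT8 checked the labels. Its brighter probe set (221820_s_at) averaged 552 ± 140 signal units in knockdown cells and 3318 ± 448 in wild type (SD, n = 3 each), 16.6% of the wild type mean (log2 change -2.61, SE 0.17; adjusted p = 4.72e-05 by limma). It averaged 4695 ± 88.9 in overexpression and 3318 ± 448 in wild type, where the log2 fold change of 0.51 (SE 0.17) was not called (limma adjusted p = 0.259) although the groups did not overlap. The dimmer KAT8 probe set (214885_at) averaged 148 ± 25.3 in knockdown and 443 ± 50.6 in wild type (log2 -1.58, SE 0.26, limma adjusted p = 0.00296). In overexpression it averaged 489 ± 147, which overlapped wild type (log2 0.11, SE 0.26, limma adjusted p = 0.910). The 6 HEK293 markers were all tested, with summed signals of 95337 to 109013 in knockdown, 89895 to 106589 in overexpression and 98452 to 102830 in wild type. Of 13 markers of blood, fibroblast, liver, endothelial and muscle cells 3 were bright enough to test, none was listed at 0, and their summed signals ran from 2375 to 3059 in knockdown, 3325 to 3956 in overexpression and 2906 to 3954 in wild type. Of the 6 line markers, PAX2 and KRT8 had knockdown arrays wholly below wild type. PAX2 read 184 to 211 in knockdown, 558 to 667 in overexpression and 369 to 486 in wild type, and KRT8 read 598 to 721, 1352 to 1658 and 879 to 1014 in the same groups. VIM makes up most of the summed signal of the 6, and COL1A1, a fibroblast marker, most of that of the 13. COL1A1 read 1429 to 1979 in knockdown, 1914 to 2819 in overexpression and 2012 to 2309 in wild type, so its knockdown arrays also lay below wild type. The part of these in the results was not tested. In bulk RNA, fewer cells of a type and less RNA per cell cannot be told apart.

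Between knockdown and wild type cells, MEIS1, MEIS2, PBX3, TGIF1 and 1 probe set of PBX2 were higher in the knockdown, by 1.31-fold to 1.73-fold, and none was lower. Limma called 6 of the 15 tested probe sets higher (40%), where 6.82% of all probe sets tested were called higher and 8.89% lower. By the brightest probe set of each gene, 4 of 7 genes were called higher, against 6.7% of the 12036 genes tested. Both counts fell when 1 array was left out. The probe sets called were 2 of the 15 without wild type replicate 2, and 3 without wild type replicate 3 or any 1 knockdown array. Over the whole array, those called in either direction fell too, from 4289 of 27307 to 2213 without wild type replicate 2. They were 2758 without wild type replicate 3 and 2273 to 3255 without 1 knockdown array. The genes called were 2 of the 7 without wild type replicate 2, overexpression replicate 3 or any 1 knockdown array. The same was not counted over all genes. The median log2 fold change over the 15 probe sets was 0.38, with 14 above 0, against 0.01 over all probe sets. Adjusted p-values are Benjamini-Hochberg over all probe sets tested, with a threshold of 0.05. In 7 of the 15 the 3 knockdown arrays all exceeded the 3 wild type arrays, as in 16.9% of all probe sets. The exact permutation test of 3 against 3 arrays gave p = 0.1, the smallest it can give, for each of the 6.

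**Figure D1:**
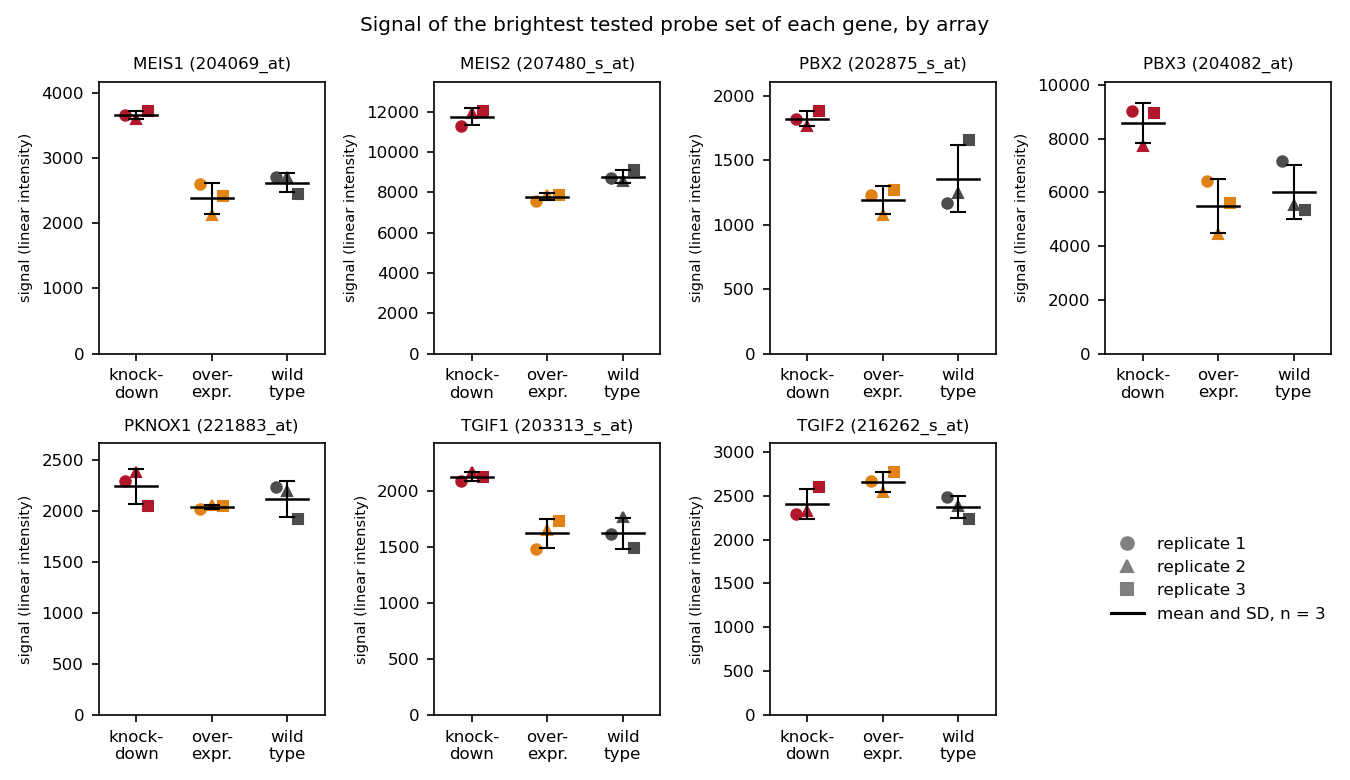
Signal on every array of the brightest probe set of each of the 7 genes, with knockdown, overexpression and wild type from left to right; points are arrays and bars the mean with SD (n = 3 each). MEIS1, MEIS2, PBX2, PBX3 and TGIF1 lie higher in all 3 knockdown arrays than in all wild type arrays, and PKNOX1 and TGIF2 overlap between these groups.

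MEIS1 and MEIS2 are the HOX and PBX partners that hold PBX in the nucleus, and MEIS1 is also known as a partner of HOXA9 in leukaemia. The brighter MEIS1 probe set (204069_at) read 3668, 3609 and 3733 in knockdown, 2606, 2130 and 2422 in overexpression and 2718, 2706 and 2456 in wild type. All knockdown arrays lay above all others, and the other 2 groups overlapped. The log2 fold change of knockdown over wild type was 0.48 (SE 0.10, limma adjusted p = 0.0114, 95% interval 0.25 to 0.71). The other MEIS1 probe set (1559477_s_at) was dimmer, at 1477, 1461 and 1242 in knockdown, 977, 931 and 834 in overexpression and 1019, 998 and 884 in wild type. It moved by 0.52 (SE 0.13, limma adjusted p = 0.0242), so both MEIS1 probe sets gave a change of the same size. This second call was lost without knockdown replicate 1, knockdown replicate 2, wild type replicate 2 or wild type replicate 3 (adjusted p up to 0.0867) and in replicates 2 and 3 alone (adjusted p = 0.052), while the first was kept in all 9 fits that left out 1 array (up to 0.0457).

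MEIS2 had the smallest adjusted p among the 7 genes in knockdown against wild type. Its probe set (207480_s_at) read 11299, 11951 and 12067 in knockdown, 7580, 7895 and 7898 in overexpression and 8695, 8547 and 9139 in wild type. No group overlapped another, with knockdown highest and overexpression lowest. The log2 fold change of knockdown over wild type was 0.42 (SE 0.07, limma adjusted p = 0.00385, 95% interval 0.26 to 0.58), a 1.34-fold difference, and it was called in all 9 fits without 1 array (adjusted p up to 0.0242).

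PBX2 and PBX3 are the PBX proteins that MEIS and HOX proteins pair with. PBX3 (204082_at) read 9048, 7727 and 8958 in knockdown, 6435, 4454 and 5593 in overexpression and 7156, 5528 and 5340 in wild type. The lowest knockdown array was above the highest of the other arrays, but the spread within the other groups was wide, with replicate 1 highest in each. Knockdown over wild type gave a log2 change of 0.52 (SE 0.15, limma adjusted p = 0.0364, 95% interval 0.20 to 0.85). The call was lost without any 1 of the 3 knockdown arrays, wild type replicate 2 or 3, or overexpression replicate 3 (adjusted p up to 0.124). Within replicate numbers the log2 difference was 0.34, 0.48 and 0.75.

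The 3 tested PBX2 probe sets were all higher on average in knockdown cells but did not all pass. The brightest (202875_s_at) read 1822, 1765 and 1885 in knockdown, 1230, 1073 and 1272 in overexpression and 1171, 1244 and 1656 in wild type. Wild type replicate 3 stood between the other wild type arrays and the knockdown arrays. Its log2 difference of 0.44 (SE 0.15) missed the threshold (limma adjusted p = 0.0627), and it passed without wild type replicate 3 (0.60, adjusted p = 0.0237) or with the replicate number as a block (adjusted p = 0.0172). A dimmer probe set (211097_s_at) read 905, 859 and 1232 in knockdown, 448, 465 and 684 in overexpression and 563, 551 and 595 in wild type. It was the widest difference of the 15, with a log2 change of 0.79 (SE 0.20, limma adjusted p = 0.0242), lost without knockdown replicate 3 or any 1 wild type array (adjusted p up to 0.0991). The other (202876_s_at) read 1096, 1446 and 1507 in knockdown, 1130, 1198 and 1115 in overexpression and 962, 1147 and 1080 in wild type, so knockdown and wild type overlapped at a log2 difference of 0.33 (SE 0.15, limma adjusted p = 0.152). With the probe sets of a gene averaged first, an alternative added after seeing the data, PBX2 gave 0.52 (SE 0.12, limma adjusted p = 0.0124). RefSeq lists a pseudogene copy, PBX2P1, whose transcripts could share probes with PBX2, as TGIF1P1 could with TGIF1 and TGIF2P1 with TGIF2.

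PKNOX1, which pairs with PBX in place of MEIS, was not called by any of its 5 probe sets. The brightest (221883_at) read 2294, 2380 and 2048 in knockdown, 2014, 2054 and 2045 in overexpression and 2233, 2198 and 1916 in wild type. The 95% interval of the log2 difference between knockdown and wild type ran from -0.16 to 0.32 around 0.08 (SE 0.11, limma adjusted p = 0.652). The next probe set (204195_s_at) read 1903, 1645 and 1424 in knockdown, 1688, 1509 and 1403 in overexpression and 1643, 1403 and 1181 in wild type. Its log2 difference between knockdown and wild type was 0.24 (SE 0.16, limma adjusted p = 0.337). The 95% interval, -0.11 to 0.58, includes the 0.48 of MEIS1. On both the groups overlapped. The other 3 (54051_at, 216004_s_at and 204196_x_at) gave log2 differences of 0.06, 0.05 and 0.38, with standard errors of 0.21 to 0.27 and 95% intervals that include the 0.48 of MEIS1. After the values were seen, the differences themselves were compared per array, with only the brightest probe set (221883_at) standing for PKNOX1. The log2 change of MEIS1 exceeded that of PKNOX1 by 0.40 (SE 0.08), that of MEIS2 by 0.34 (SE 0.13) and that of PBX3 by 0.44 (SE 0.16). The other PKNOX1 probe sets, of which 204195_s_at and 204196_x_at changed more, were not compared in this way. In each case the 3 knockdown arrays lay above the 3 wild type arrays (exact permutation p = 0.1, the smallest possible for 3 against 3).

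TGIF1 and TGIF2, the SMAD corepressors, did not move alike. TGIF1 (203313_s_at) read 2093, 2170 and 2128 in knockdown, 1480, 1653 and 1738 in overexpression and 1616, 1767 and 1490 in wild type. The knockdown arrays were tightly grouped above the other 6, and overexpression and wild type overlapped. Its log2 change of 0.39 (SE 0.11, limma adjusted p = 0.0387, 95% interval 0.14 to 0.64) was close to the threshold. It was lost without any 1 knockdown or wild type array or overexpression replicate 3 (highest adjusted p 0.122), and within replicates 2 and 3 alone (adjusted p = 0.0533). The brighter TGIF2 probe set (216262_s_at) read 2298, 2325 and 2599 in knockdown, 2668, 2544 and 2769 in overexpression and 2487, 2379 and 2236 in wild type, a log2 difference between knockdown and wild type of 0.02 (SE 0.10, adjusted p = 0.905, 95% interval -0.20 to 0.25). The other TGIF2 probe set (218724_s_at) read 1905, 1743 and 1419 in knockdown, 1973, 1821 and 1897 in overexpression and 1783, 1884 and 1450 in wild type, a difference of -0.02 (SE 0.14, 95% interval -0.33 to 0.30). With only 216262_s_at standing for TGIF2, the log2 change of TGIF1 exceeded that of TGIF2 by 0.37 (SE 0.08). Knockdown and wild type arrays did not overlap in this difference (exact permutation p = 0.1, the smallest possible). The other TGIF2 probe set was not compared in this way. The pair of genes was chosen after its values were seen.

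Between overexpression and wild type cells, 0 of the 15 probe sets passed limma's threshold, with 0.476% of all probe sets called (0 of 7 genes, against 0.631% of all genes). An unadjusted limma p under 0.05 was reached by 3351 of all 27307 probe sets and by 1 of the 15. That was MEIS2, lower in overexpression by a log2 change of -0.17 (SE 0.07, adjusted p = 0.363, and 0.113 to 0.644 over the alternatives, 95% interval -0.33 to -0.01), with all 3 overexpression arrays below all wild type arrays. TGIF2 (216262_s_at) lay higher in all 3 overexpression arrays, by 0.17 (SE 0.10, adjusted p = 0.543). Across all probe sets 9.92% lay wholly higher and 7.67% wholly lower. MEIS1 differed by -0.14 and -0.08, PBX2 by -0.17, 0.11 and -0.12, PBX3 by -0.13 and TGIF1 by -0.00 (log2). The PKNOX1 probe sets ran from -0.32 to 0.19. The median over the 15 was -0.05, with 6 above 0, against 0.01 over all probe sets.

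**Figure D2:**
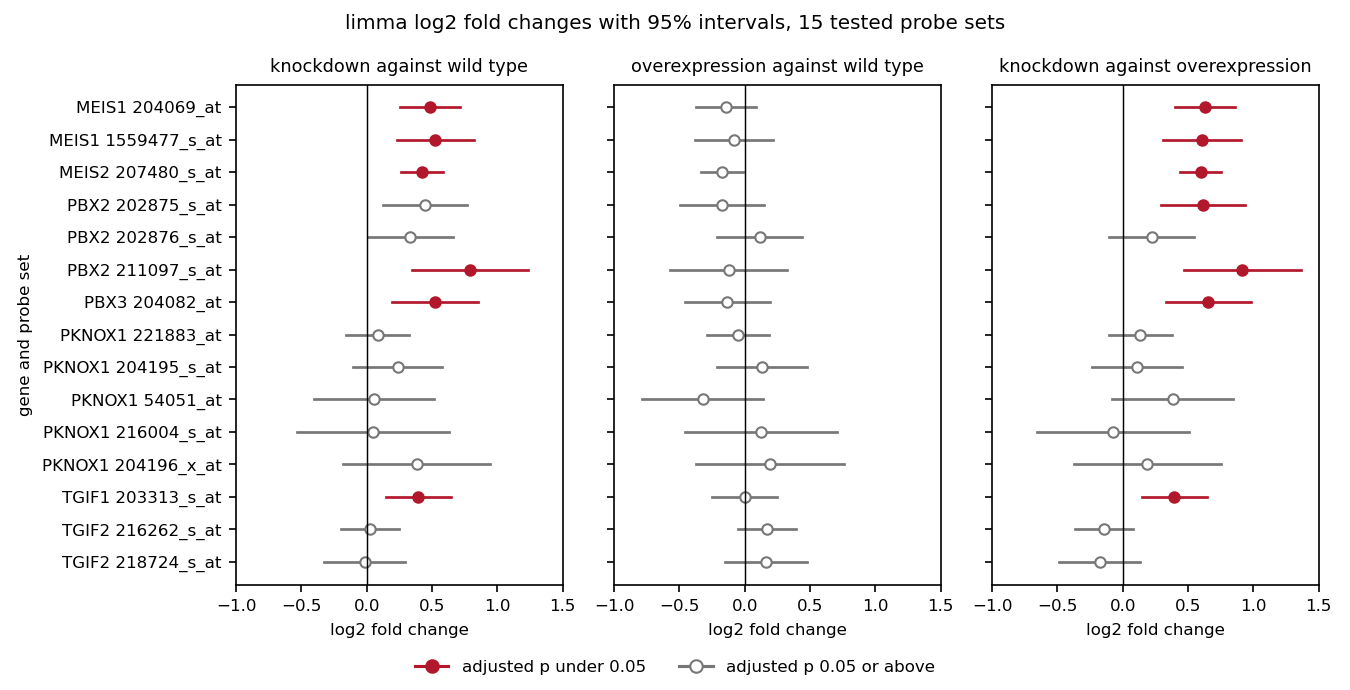
Log2 fold change with its 95% interval (limma) of the 15 tested probe sets in knockdown against wild type, overexpression against wild type and knockdown against overexpression, from left to right; filled red points have an adjusted p under 0.05. The called probe sets of MEIS1, MEIS2, PBX2, PBX3 and TGIF1 lie to the right of 0 in the comparisons with the knockdown, from 0.39 to 0.91, and the overexpression values lie between -0.32 and 0.19.

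Between knockdown and overexpression cells, both of which were transfected, 7 of 15 probe sets were called higher in knockdown (46.7%), where 5.75% of all probe sets were called higher, and none lower, where 8.76% were. The knockdown received small interfering RNA and the overexpression a plasmid, so what was transfected and altered MOF cannot be told apart here. The same 7 had every knockdown array above every overexpression array, as in 14.9% of all probe sets. By brightest probe set these were 5 of 7 genes, against 6.22% of all genes. Without knockdown replicate 3 the counts were 3 of 15 probe sets and 2 of 7 genes, and without overexpression replicate 2 there were 3 of 7 genes. Over the whole array, 3963 of 27307 probe sets were called in either direction with all arrays. That fell to 2154 without knockdown replicate 3 and 2934 without overexpression replicate 2. The comparison shares its knockdown arrays with the one against wild type, so the values stand side by side. MEIS1 differed by log2 fold changes of 0.63 (SE 0.10, limma adjusted p = 0.00351) and 0.61 (SE 0.13, adjusted p = 0.0133), and MEIS2 by 0.60 (SE 0.07, adjusted p = 0.000684). PBX3 differed by 0.66 (SE 0.15, adjusted p = 0.0145), the brightest PBX2 probe set by 0.62 (SE 0.15, adjusted p = 0.0178) and 211097_s_at of PBX2 by 0.91 (SE 0.20, adjusted p = 0.0133). TGIF1 differed by 0.39 (SE 0.11, adjusted p = 0.0406). MEIS2 and the brighter MEIS1 probe set were called in all 9 fits without 1 array. The calls of PBX3 and of PBX2 211097_s_at were lost without knockdown replicate 3 (adjusted p = 0.0577 and 0.0601), and that of PBX2 202875_s_at without knockdown replicate 3 or overexpression replicate 2 (up to 0.0651). The second MEIS1 probe set was lost without knockdown replicate 2 or overexpression replicate 3 (up to 0.0608). TGIF1 was lost without any 1 of the knockdown or overexpression arrays or wild type replicate 2 (up to 0.12), and also with no filter, with the 2 groups alone and in replicates 2 and 3 alone (up to 0.0979). TGIF2 gave -0.15 and -0.18 and was not called (adjusted p = 0.376 and 0.448). TGIF1 exceeded TGIF2 (216262_s_at only) in log2 change by 0.54 (SE 0.09), again with no overlap of arrays (exact permutation p = 0.1, the smallest possible). No PKNOX1 probe set was called.

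**Figure D3:**
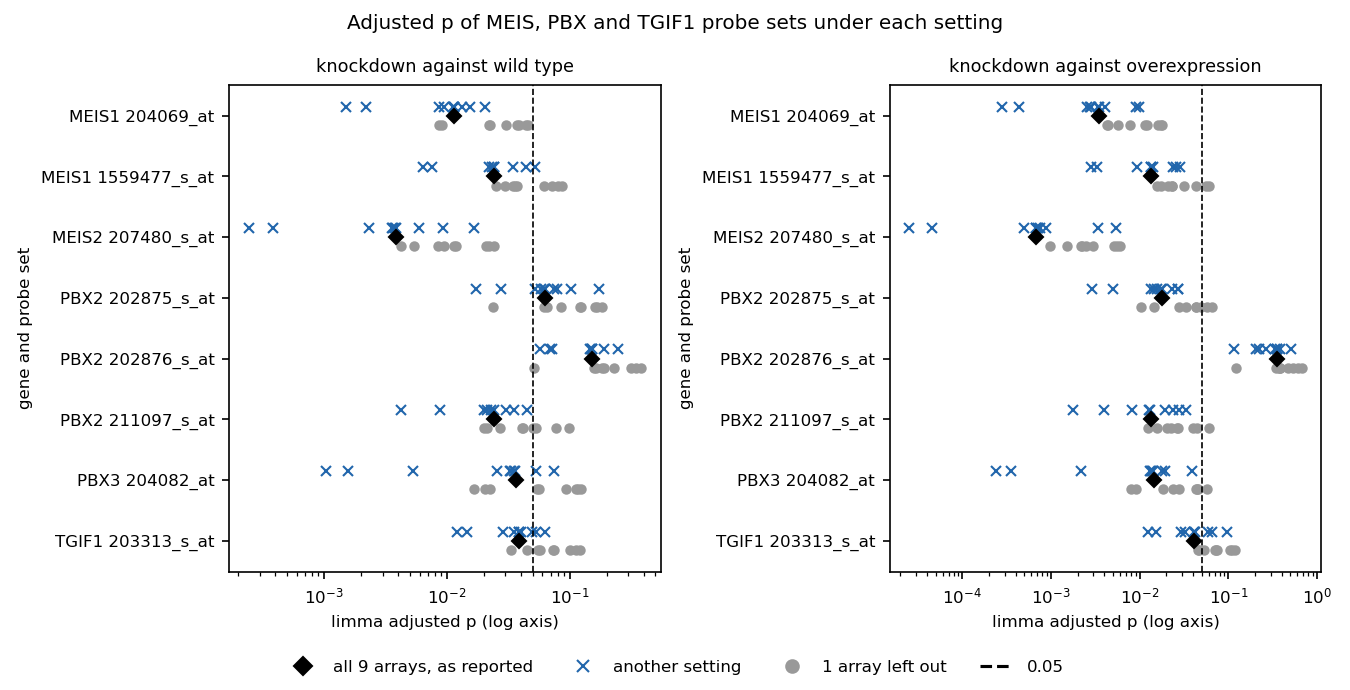
Adjusted p (log axis) of the tested MEIS, PBX and TGIF1 probe sets in knockdown against wild type and knockdown against overexpression, in 9 fits that each left out 1 array and under 10 other settings (grey points and blue crosses), beside the value as reported (black diamonds), with the line at 0.05. MEIS2 and MEIS1 204069_at stay below the line in both comparisons, while TGIF1 and PBX3 cross it.

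HOX genes, whose proteins bind DNA with these cofactors, had 25 tested members. In knockdown against wild type 16 were higher and 0 lower, with a median log2 fold change of 0.62 over the 25, against -0.04 over all genes, of which 6.7% were called higher and 12.7% lower. Leaving out 1 array gave 12 to 16. The 4 of smallest p were HOXB7 at 0.76 (SE 0.08, limma adjusted p = 0.000239), HOXB4 at 0.96 (SE 0.12, adjusted p = 0.000659), HOXD11 at 0.84 (SE 0.11, adjusted p = 0.000697) and HOXB5 at 0.86 (SE 0.11, adjusted p = 0.000724). In overexpression against wild type limma called 0 of 25, with 0.631% of all genes called. At an unadjusted limma p under 0.05 there were 4 of 25, and 3351 of all 27307 probe sets. The replicate block called 3 of 25, and 1022 of all probe sets. Knockdown against overexpression had 11 higher and 0 lower, with 6.22% and 12.1% of all genes, and 7 higher without overexpression replicate 3 or knockdown replicate 3. HOXB5 differed there by 1.03 (adjusted p = 0.000343). The HOX median of 0.62 compares with 0.42 over the 7 TALE genes, and the difference was not tested.

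Among other TALE genes, 9 of 12 listed had a probe set and 6 were tested, namely PBX4, MEIS3, PKNOX2, IRX3, IRX5 and MKX. Limma called none of the 6 in knockdown against wild type (1 at an unadjusted p under 0.05) or in overexpression against wild type (1). Of all 27307 probe sets, 8370 and 3351 reached that unadjusted p in these comparisons. PKNOX2 (63305_at), the paralogue of PKNOX1, read 2694, 2618 and 2719 in knockdown, 1809, 1437 and 1754 in overexpression and 2209, 2002 and 2258 in wild type. No group overlapped another, in the same order as MEIS2. Knockdown exceeded overexpression by a log2 change of 0.69 (SE 0.12, limma adjusted p = 0.0037), called in all 9 fits without 1 array. Against wild type the knockdown gave 0.31 (SE 0.12, adjusted p = 0.0925, and 0.027 with the replicate block), and overexpression gave -0.38 (adjusted p = 0.229, and 0.0486 with the block). Replicate 1 arrays deviated alike in both of these comparisons (correlations of 0.362 for knockdown and 0.447 for overexpression with wild type). Beyond replicate 1 the replicate numbers did not stand out in either. PBX4 and MEIS3 gave 0.31 (SE 0.23) and 0.07 (SE 0.19) in knockdown against wild type.

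Of 11 tested SMAD and corepressor partners of the TGIF proteins, limma called 0 in each comparison. At an unadjusted limma p under 0.05 there were 3, 2 and 3 in knockdown against wild type, overexpression against wild type and knockdown against overexpression. Over all 27307 probe sets there were 8370, 3351 and 7984, so these counts are not set apart from that background. With the replicate block, SMAD4 and SKI were called higher and CTBP1 and HDAC1 lower in knockdown against wild type. In knockdown against overexpression 2 and 2 were called. The block called 7637 and 7334 of all 27307 probe sets in these comparisons, so counts this small are not set apart from that background either. Of 10 tested PBX interacting or regulating genes, PSIP1, which tethers the menin and MLL complex to chromatin, was lower in knockdown by a log2 change of -0.31 (SE 0.09, limma adjusted p = 0.0356). That is 1 of 10, where 12.7% of all genes were called lower. The PSIP1 call was lost without knockdown replicate 2 or 3 or wild type replicate 2 or 3 (adjusted p up to 0.124). Limma called 0 of the 10 in overexpression against wild type and in knockdown against overexpression (0 and 1 at an unadjusted p under 0.05). HDAC3 was called in the second with the replicate block. Of all 27307 probe sets, 3351 and 7984 had such an unadjusted p, and 7334 were called in the second with the block.

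Retinoic acid induces MEIS genes and HOX genes in many cell types. Of 14 tested genes of its pathway, 2 were higher and 1 lower in knockdown against wild type, with a median log2 change of 0.07. Of all genes 6.7% were higher and 12.7% lower, so counts this small are not set apart from that background. ALDH1A2, which makes retinoic acid, differed by 0.56 (SE 0.09, limma adjusted p = 0.00311), and DHRS3, which reduces retinal back to retinol, by 0.67 (SE 0.13, adjusted p = 0.00631). CYP26A1, which breaks retinoic acid down, was lower by a log2 change of -0.59 (SE 0.15, adjusted p = 0.0228), a call lost without knockdown replicate 2 or 3 or wild type replicate 3 (up to 0.0849). In knockdown against overexpression 3 were higher and 1 lower (6.22% and 12.1% of all genes), at 0.68 for ALDH1A2, 0.60 for DHRS3, 0.35 for RDH10 and -0.67 for CYP26A1. Without knockdown replicate 3 only ALDH1A2 of these was called, and RDH10 (adjusted p = 0.0285) was also lost without knockdown replicate 1 or 2 or overexpression replicate 1 or 2 (up to 0.113). Limma called 0 of 14 in overexpression against wild type (1 at an unadjusted p under 0.05, as were 3351 of all 27307 probe sets).

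Homeobox genes of other classes had 29 tested members. In knockdown against wild type 3 were called higher and 3 lower, where 6.7% of all genes were higher and 12.7% lower. Called counts this small are not set apart from that background. The median log2 change was 0.23, against -0.04 over all genes. At an unadjusted limma p under 0.05 there were 14 of 29, and 8370 of all 27307 probe sets. With the replicate block 10 were higher and 4 lower. Over the whole array the block called 7637 of 27307 probe sets, against 4289 without it. Whether this list differs from the whole array was not tested. Without wild type replicate 2, knockdown replicate 2 or knockdown replicate 3 there were 1 higher and 2 lower. MSX2, a BMP target, was higher by 0.89 (SE 0.09, limma adjusted p = 0.000276). PAX2, a kidney regulator, was lower by a log2 change of -1.07 (SE 0.20, adjusted p = 0.00513), and LHX9 by -1.26 (SE 0.25, adjusted p = 0.00736), from a single dim tested probe set. MSX2 was also the only one of the 29 called in overexpression against wild type, where 0.631% of all genes were called. It differed there by 0.67 (limma adjusted p = 0.0115), a call lost without wild type replicate 2 or 3 or overexpression replicate 3 (up to 0.0664). In knockdown against overexpression 3 were higher and 4 lower (6.22% and 12.1% of all genes), PAX2 at -1.66 and LHX9 at -1.44.

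**Figure D4:**
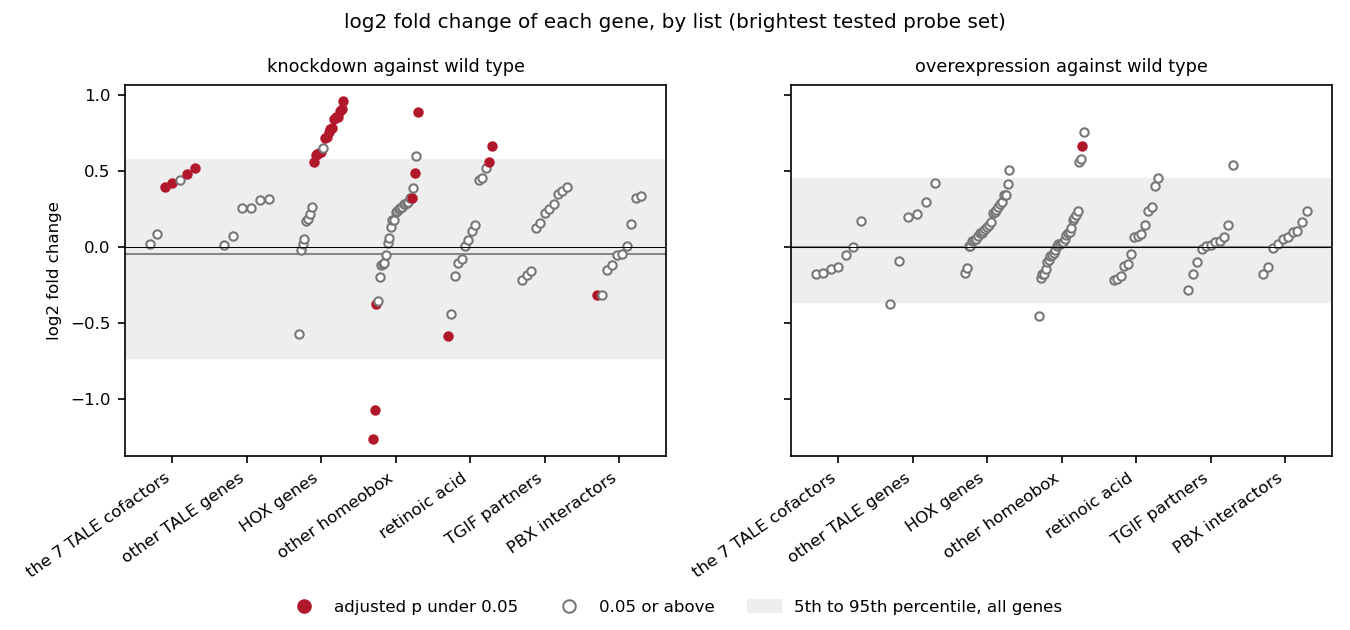
Log2 fold change of each tested gene of the TALE genes and the gene lists in knockdown against wild type and overexpression against wild type, 1 point per gene, filled where the adjusted p is under 0.05; the band spans the 5th to 95th percentile of all 12036 genes. In the knockdown most HOX genes and 5 of the 7 cofactor genes lie above 0.38, the other TALE genes lie between 0.01 and 0.31, and the remaining lists spread on both sides of 0.

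The genes whose signal ran most like each called gene over the 9 arrays were ranked among 12035 others by Pearson's r, as a description, since all arrays share the same group structure. MEIS1 was most like ROBO2 (0.991), BUB1B (0.989) and TM7SF2 (0.988). MEIS2 was most like DVL2 (0.990), CTSB (0.985) and LIN28B (0.984). PBX3 was most like PYCR1 (0.991), GGA2 (0.985) and CENPV (0.985), PBX2 like PTOV1-AS1 (0.967), KIF18B (0.954) and SLIT2 (0.954), and TGIF1 like PLPP5 (0.982), EMC9 (0.972) and ADCY10P1 (0.969). Among the members, MEIS1 ran with PBX3 at 0.940 (rank 88 of the 12035) and with MEIS2 at 0.921 (rank 137), so many other genes ran closer to it. PKNOX1 ran with the 5 called genes at 0.201 to 0.652, and TGIF2 ran with them at -0.474 to -0.145.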

How the data were processed

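Total RNA from 9 HEK293 samples was labelled with biotin and hybridised to 9 arrays. The deposited intensity, 1 signal per probe set, was made by the authors with MAS5, per the submitters' processing notes, with no version given. Every array had the same 2% trimmed mean of 1500.2, so a shift in total RNA is hidden. MAS5 signals of dim probe sets vary more. Detection calls were not used here. Samples were grouped by their titles. The design text also names a control RNA treatment, of which no samples were analysed here. Having 3 arrays per group limits the precision.

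After 62 control probe sets were left out, signals were taken as log2(signal + 1), and probe sets whose mean reached the median (7.56, a signal of about 188) were tested. Limma 3.58.1 in R 4.3.3 (lmFit, eBayes with trend) was fitted once to the 9 arrays (6 residual degrees of freedom). Tests were two-sided, with Benjamini-Hochberg adjustment over 27307 probe sets and a threshold of 0.05. A fold change refers to log2(signal + 1). The fit was also run on simulated data with independent noise per array and no replicate 1 difference. That run therefore does not check how the fit handles such a difference. The probe set of highest mean signal stood for a gene. Exact permutation tests used scipy 1.17.1, and figures matplotlib 3.10.9.

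Of 54675 probe sets 41097 had 1 symbol in the platform annotation, 1801 several and 11777 none, and 41043 matched RefSeq (GRCh38.p14) by Entrez ID. Every member was named, with KAT8, the 3 genes most alike to each called member, and up to 4 genes of smallest p past the threshold from each list. Other list genes were named after their values were seen. The members and lists were chosen with earlier results of these data known.

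No 2 arrays were identical, and within-group correlations were 0.973 to 0.985. Added poly-A controls were 2.22-fold brighter in replicates 2 and 3 than in replicate 1, and hybridization controls 1.19-fold, with no overlap. Pairing was checked from the replicate numbers in the titles: same-numbered deviations from group means correlated at 0.362, 0.144 and 0.137 for knockdown with wild type, 0.352, 0.237 and 0.106 for knockdown with overexpression, and 0.447, 0.160 and 0.083 for overexpression with wild type. Every pair was over 0.1 in the first 2 comparisons only. In the last, replicate 1 correlated highest of all (0.447) and replicate 3 was under 0.1. Differently numbered arrays of replicates 2 and 3 correlated at 0.029 to 0.284, a range that holds the same-number values of those replicates, so beyond replicate 1 the numbers did not stand out. Alternatives were other offsets, filters and normalization, a fit without trend, 2 groups alone, the replicate block, a replicate 1 term, replicates 2 and 3 alone, and each array left out.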

Additional observations from a re-analysis of the deposited data

How the results depend on the processing

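Of 837 values of the 45 probe set results under the alternatives, 774 kept direction and side of the threshold. The 13 called results kept their sign in all 243 alternative values and lost the call in 42. The counts of TALE probe sets called stayed within 1.5 times under the 10 other settings, while leaving out 1 array gave 2 to 6 of the 15 in knockdown against wild type and 3 to 7 in knockdown against overexpression. By gene these left-out fits gave 2 to 4 and 2 to 5, and with no filter the first comparison had 2 of 7 genes. With the replicate block, the probe sets called over the whole array were 7637 in knockdown against wild type (4289 without it), 7334 in knockdown against overexpression (3963) and 1022 in overexpression against wild type (130). In the last, replicate 3 correlated under 0.1 although replicate 1 correlated highest (0.447). Beyond replicate 1 the numbers did not stand out in any comparison. The block turned 1 call among the 15, PBX2 202875_s_at, and 0 probe sets of these genes were called in overexpression against wild type under it. A replicate 1 term gave 7706, 7425 and 1109. Leaving out 1 array gave 2213 to 4624, 2040 to 4168 and 25 to 97. In overexpression against wild type, the 2 groups alone gave 27, a fit without trend 70 and replicates 2 and 3 alone 220. The cause was not tested.

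All values that changed sign were of results not called. TGIF2 218724_s_at in knockdown against wild type was 0.0018 after quantile normalization. Within replicates 2 and 3, TGIF1 was 0.063 in overexpression against wild type and PKNOX1 204196_x_at -0.074 in knockdown against overexpression. Leaving out 1 array gave, in knockdown against wild type, -0.075 to 0.22 for PKNOX1 54051_at, -0.23 to 0.19 for 216004_s_at, -0.033 to 0.059 for TGIF2 216262_s_at and -0.13 to 0.10 for 218724_s_at. In overexpression against wild type it gave -0.25 to 0.011 for PBX3, -0.15 to 0.31 for PKNOX1 216004_s_at and -0.061 to 0.065 for TGIF1, and in knockdown against overexpression -0.26 to 0.10 for PKNOX1 216004_s_at. PBX3 lost its call in knockdown against wild type with no filter and with no trend (adjusted p up to 0.0746), TGIF1 with no filter and in replicates 2 and 3 (up to 0.0628), and MEIS1 1559477_s_at in replicates 2 and 3 (0.052).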

Other observations

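Besides the 15 tested probe sets of these genes, 3 were too dim for the test. PBX2 211096_at read 235, 207 and 160 in knockdown, 23.6, 185 and 264 in overexpression and 126, 161 and 176 in wild type. TGIF1 1566901_at read 193, 115 and 233 in knockdown, 95.4, 165 and 148 in overexpression and 159, 224 and 209 in wild type. TGIF1 244858_at read 228, 234 and 130 in knockdown, 146, 100 and 156 in overexpression and 79.4, 133 and 220 in wild type. All 3 overlapped between every pair of groups.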
